A study of Bos taurus with 24 samples.

Results

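This experiment compared bovine monocyte-derived macrophages (MDMs) of high and low responder Holstein cows in wells that had received no bacteria, at the 3 h time point. The members were the 6 control libraries of 3 h, 3 from high responders and 3 from low responders, of 24 libraries in the series. All cows were lactating females, and responder status had been set by the nitric oxide that their MDMs made in vitro when given E. coli. In the whole experiment the MDMs of each cow were seeded in 4 wells, a control well and a well given PFA inactivated E. coli at each of 3 h and 18 h, and RNA-seq was done on every well. Both groups compared here came from adherent blood mononuclear cells grown without serum in the growth factor GM-CSF, and both were left without bacteria. There was 1 library per cow, so the errors are between cows, and groups of 3 limit how far the result speaks for responder status in general. The question was what differed between the 2 phenotypes before any bacteria were added.

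Macrophages carry a low, standing output of interferon and of the genes it switches on even when no microbe is present. Type I interferon binds its receptor, which drives STAT2 and IRF9 to the promoters of interferon-stimulated genes, whose products block virus replication, conjugate ISG15 to proteins and present antigen. The same cells make nitric oxide from arginine with the inducible synthase NOS2 once bacterial lipopolysaccharide is sensed through CD14 and TLR4, and this enzyme is nearly silent in resting macrophages.

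In these unexposed wells, genes of several lists were read at lower levels in high responders than in low responders, with the lowest median in interferon-stimulated genes. The lists of cell cycle and ribosomal protein genes had medians of 0.15 and -0.0026 on the log2 scale. With 1 library left out, these ranged from -0.07 to 0.37 and from -0.31 to 0.21. The median log2 fold change of 25 interferon-stimulated genes was -1.57, and that of 8 chemokine genes was -1.21, of which 3 had groups that did not overlap. The groups did not overlap, lower in high responders, in 6 of 10 stress genes and 5 of 9 genes of nitric oxide, arginine and oxidase. Their medians were -0.57 and -0.77, and 1 more of the 9 was higher without overlap. The 3 calgranulin genes had a median of -1.29, with 0 such members. Lists that the study ranked by responder contrast gave the symbols of all 25 interferon-stimulated, 7 of 8 chemokine and 10 of 10 stress genes. They also gave 8 of the 9 nitric oxide, arginine and oxidase symbols. Of all tested genes from those lists, 20.9% were lower in high responders without overlap. At 18 h without bacteria the chemokine median was -0.18 and the stress gene median -0.50. Among genes with no symbol, 5.45% were lower and 6.00% were higher in high responders without overlap. A set led by an unnamed gene that was nearly absent from low responders and by ABCA10, DAB2 and LGMN was higher in high responders. Of all these genes 1 passed the main test after adjustment, so the rest are given as values with their errors.

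The libraries held between 6297190 and 17676166 expected read counts, and 11034 of 24616 listed genes passed the filter on low counts. Levels are in CPM, counts scaled to the total of each library after adjustment by its TMM factor, which was 0.927 to 1.03. They are given in the order of library codes 92, 93 and 94 for high responders and 91, 92 and 93 for low responders, and log2 fold changes, written as log2 differences, are high minus low responders. The meaning of these codes was not stated in the sources used here. The 3 low responder libraries lay close together, with Pearson r across genes of 0.947 to 0.969, while r was 0.900 to 0.945 among the high responder libraries. Each high responder library had a higher r with a low responder library than with any of its own group. These were 0.968 for 92 with low responder 93, 0.942 for 94 with low responder 91 and 0.947 for 93 with low responder 92. Among high responders, r was 0.900 between 92 and 94, 0.945 between 92 and 93 and 0.935 between 94 and 93. On the first axis of the multidimensional scaling plot, the low responders lay between 0.81 and 0.87 and the high responders at 0.02, -1.03 and -1.53. On the second axis high responder 94 was at -1.22 and low responder 91 at -0.98, and high responder 92 was at 1.47. High responder 92 was thus the nearest of its group to the low responders on the first axis. Some of the results that moved when 1 library was left out are also given without that library.

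**Figure D1:**
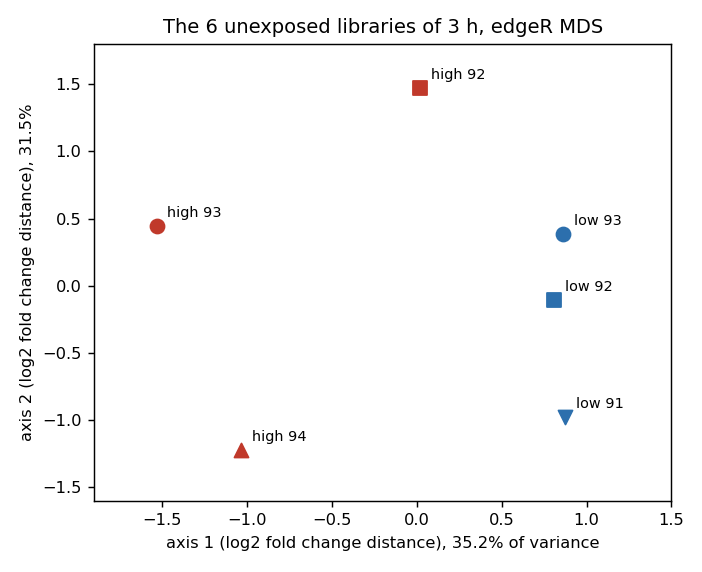
Multidimensional scaling of the 6 unexposed libraries of 3 h, with axis 1 and axis 2 as leading log2 fold change distances, high responders in red and low responders in blue, and the marker shape and label giving the library code. The low responder libraries sit together at 0.81 to 0.87 on axis 1, and the high responder libraries spread from 0.02 to -1.53.

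The cells carried macrophage transcripts in both groups. CD68, a lysosomal glycoprotein of macrophages, was at 1928, 2020 and 1964 CPM against 1308, 1890 and 1745 CPM. CD14, the lipopolysaccharide co-receptor, was at 354, 514 and 617 CPM against 209, 403 and 388 CPM, and the groups overlapped. AIF1, a macrophage actin-binding protein, was at 108, 154 and 194 CPM against 83.3, 128 and 97.0 CPM, and the scavenger receptor MSR1 at 998, 760.2 and 683 CPM against 448, 674 and 746 CPM. None of these 4 tested macrophage markers passed the test, with log2 differences of 0.26 to 0.57, and their summed level was 3388 to 3458 CPM in high responders and 2048 to 3095 CPM in low responders. The sums and CD68 did not overlap between the groups, each being higher in high responders. Low responder library 91 was the lowest in each of the 4. Of the markers of other cells that had an identifier, the B-cell gene CD79A was at 1.44, 0.614 and 1.74 CPM against 1.22, 0.475 and 1.02 CPM. The cytotoxic granule gene PRF1 had 51 counts, the endothelial receptor KDR 55 counts and the stromal receptor PDGFRB 2 counts over all 6 libraries together, so these defining markers were near 0. T-cell, neutrophil, dendritic, platelet and erythroid markers had no identifier and were not analysed here. In bulk samples a smaller number of cells of a type and less RNA per cell cannot be told apart, and the part of the macrophage markers in the results below was not tested.

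Under edgeR's quasi-likelihood test 1 gene was called, with an adjusted p below 0.05 and a fold above 1.5, which was 0.00906% of the 11034 tested. Before adjustment, 348 genes were higher (3.15%) and 518 lower (4.69%) in high responders at p below 0.05. The number of calls depended on the tool. DESeq2 called 241 genes, 67 higher and 174 lower in high responders, and limma voom with quality weights called 154, 29 higher and 125 lower. Of the DESeq2 calls, 234 were among the genes that edgeR tested, 65 higher (0.589%) and 169 lower (1.53%). Each of the 234 reached the unadjusted threshold in edgeR, and 138 were also voom calls. The groups did not overlap in 653 tested genes that were higher (5.92%) and 762 that were lower (6.91%) in high responders. Most differences below are thus values that did not pass the main test, and for each the counts are read against these percentages.

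The called gene was ENSBTAG00000037605, which has no symbol in the sources used here. It was read at 40.0, 117 and 78.0 CPM in high responders, from 277, 2089 and 1120 counts. In low responders it was at 0.334, 0 and 0.510 CPM, from 3, 0 and 6 counts. The gene was thus read in every high responder and was at or near the detection limit in every low responder, with a log2 difference of 7.87 ± 0.68 (SE; adjusted p = 0.0336). The same pattern stood in the other wells. At 18 h without bacteria it was at 64.2 ± 29.8 CPM in high responders and 0.486 ± 0.134 CPM in low responders (log2 difference 7.11, adjusted p = 0.00826), and 3 h after E. coli at 77.3 ± 45.8 CPM in high responders and 0.220 ± 0.380 CPM in low responders (log2 difference 7.94, adjusted p = 0.0212). E. coli itself did not move it past the test at 18 h (log2 difference 0.48, adjusted p = 0.320). The call was kept in 13 of 18 alternative fits, and leaving out high responder 93 gave an adjusted p of 0.214, while leaving out low responder 91, 92 or 93 gave 0.192, 0.119 and 0.146. Among the 13 were the fits of all 12 libraries of 3 h and of all 24, which counted wells of the same cow as separate replicates.

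The gene with the next smallest p, ENSBTAG00000030913, also had no symbol. Its levels were 399.8, 353 and 354 CPM against 1351, 1818 and 1326 CPM, so every high responder lay below every low responder, at a log2 difference of -2.02 ± 0.21 (SE; adjusted p = 0.0560). It missed the threshold in edgeR and was called in 8 of 18 alternatives. At 18 h its log2 difference was -1.93 and 3 h after E. coli -1.19.

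Gene symbols were at hand for 2197 of the tested genes. Of these, 1225 came from a stretch ordered by identifier, and 972 from lists that the study had ranked by its own contrast of the responder groups at 18 h. That contrast corrected the exposed wells for untreated wells, so the control wells of 18 h entered the ranking. The second kind is not a neutral sample of genes: 20.9% of the 972 had all high responders below all low responders, against 6.29% of the 1225 and 5.45% of the 8837 genes with no symbol. For the opposite direction the shares were 4.53%, 6.45% and 6.00%. An unadjusted p below 0.05 with lower levels in high responders was found for 17.7% of the 972, 4.16% of the 1225 and 3.34% of the 8837, and with higher levels for 4.42%, 2.94% and 3.04%. Counts of lower members over the lists below are thus to be read against 20.9% where they are of groups that did not overlap, and against 17.7% where they are of the unadjusted threshold. Most tested members came from the ranked lists, namely 8 of 9 interferon signalling genes, 13 of 14 guanylate-binding protein and MHC class I genes, 7 of 8 chemokine genes, 8 of 9 genes of nitric oxide, arginine and oxidase, 10 of 10 stress genes, 4 of 4 MHC class II genes, 7 of 9 genes of LPS sensing, 6 of 8 NF-kB genes, 8 of 10 immediate early genes, 3 of 3 complement genes and 3 of 3 calgranulin genes. Of the cytokine genes 1 of 5, and of the M2-associated genes 2 of 6, came from there.

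With all 6 libraries, interferon-stimulated genes were the list with the lowest median. Without high responder 94 the calgranulins (-2.70) and chemokines (-1.39) lay below them (-1.26), and without low responder 92 the same lists did (-1.58 and -1.42, beside -1.27). All 25 members with an identifier were tested, and all 25 came from the ranked lists. Each of the 25 had a negative log2 difference, with a median of -1.57, beside a median of 0.01 over all tested genes, and in 22 of the 25 the groups did not overlap. After adjustment 0 passed the edgeR test, 23 reached the unadjusted threshold, DESeq2 called 15 and voom 14, each of them lower in high responders. For the ranked genes alone, the median and the shares called by DESeq2 and voom were not computed. Summed over the list, the level was 3009, 1669 and 1062 CPM in high responders and 4234, 7109 and 5734 CPM in low responders. The sums did not overlap, and high responder 92 was the highest of its group for the sum and for 24 of the 25 genes.

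ISG15, the ubiquitin-like protein that is conjugated to other proteins in interferon-treated cells, was at 102, 47.9 and 45.4 CPM against 516, 665 and 336 CPM. Every low responder lay above every high responder, with a log2 difference of -2.96 ± 0.41 (SE; adjusted p = 0.109); DESeq2 gave an adjusted p of 8.48e-10. UBA7, the enzyme that activates ISG15 for conjugation, was at 80.0, 46.3 and 46.9 CPM against 231, 244 and 194 CPM, with a log2 difference of -1.95 ± 0.27 (SE; adjusted p = 0.109). IFIT1, which binds viral RNA lacking a proper cap, was at 113, 29.0 and 8.50 CPM against 236, 561 and 369 CPM, a spread of more than 10 times within the high responders, and its log2 difference was -2.97 ± 0.84 (SE; adjusted p = 0.333). The other members of this list named here were chosen after their values were seen. RSAD2 (viperin), an antiviral radical-SAM enzyme, was at 64.4, 11.2 and 8.22 CPM against 245, 510.0 and 365 CPM, and its neighbour CMPK2, a mitochondrial nucleotide kinase, at 17.8, 3.24 and 3.00 CPM against 46.5, 80.5 and 63.6 CPM. These had log2 differences of -3.76 and -3.05, and for both the high responder 92 value was over 5 times that of high responders 93 and 94. USP18, the protease that removes ISG15, was at 89.4, 28.8 and 19.4 CPM against 142, 203 and 156 CPM. The cytosolic RNA sensors IFIH1 (MDA5) and DHX58 (LGP2) lay in the same order. IFIH1 was at 98.2, 49.8 and 30.7 CPM against 124, 241 and 229 CPM. DHX58 was at 89.2, 63.5 and 45.8 CPM against 155, 209.8 and 137 CPM. ZBP1, a sensor of Z-form nucleic acid, was at 95.9, 46.9 and 38.6 CPM against 162, 266 and 198 CPM and the groups did not overlap in any of these sensors. At the other end of the list, SAMD9, PARP14 and PARP9 overlapped between the groups, since high responder 92 lay above low responder 91. SAMD9 was at 369, 152 and 73.8 CPM against 224, 506 and 571 CPM and PARP14 at 492, 298 and 187 CPM against 349.7, 677 and 719 CPM.

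**Figure D2:**
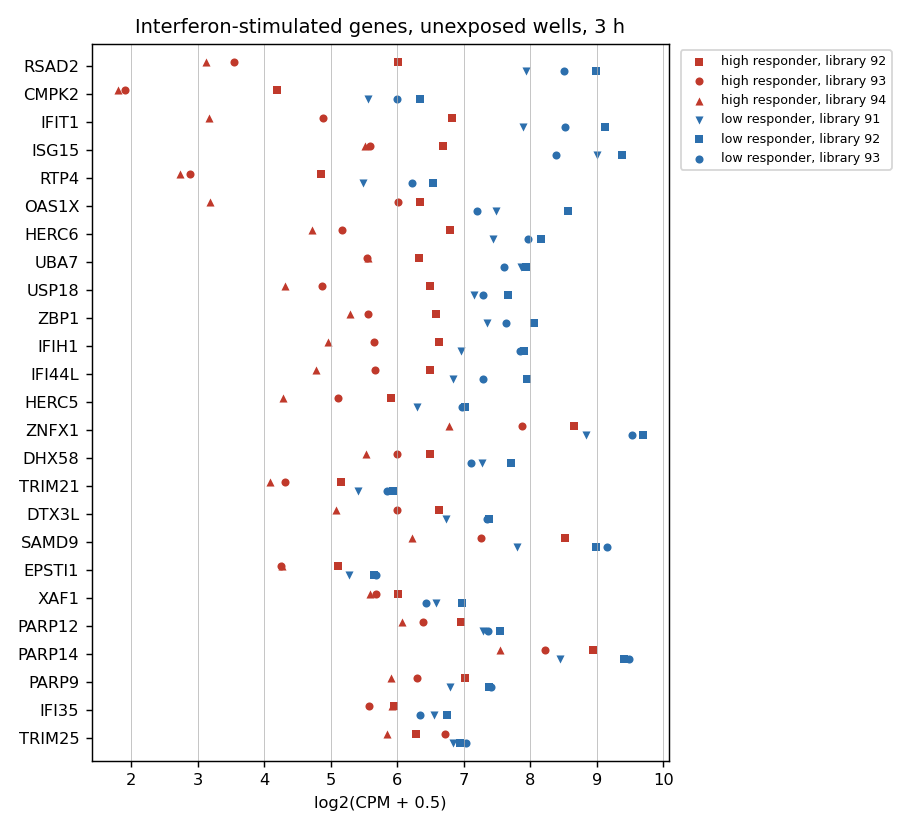
Levels of the 25 tested interferon-stimulated genes in each of the 6 libraries, as log2(CPM + 0.5), ordered by fold change, with high responders in red, low responders in blue and the marker shape for the library code. The high responders lie to the left of the low responders in 22 of 25 genes, and library 92 is the rightmost of the high responders in 24.

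Leaving out 1 library at a time did not turn the list. The median lay between -2.06 and -1.26, and 19 to 25 of the 25 members had an unadjusted p below 0.05 and lower levels in high responders. Without high responder 92 this count was 24, without low responder 91, which had the lowest macrophage markers, it was 25, and in either case the groups did not overlap in 25 of 25. With fewer libraries groups lie apart more readily, and the share over all genes was not counted in these fits. Within a shared library code, the median log2 ratio of high to low over the list was -1.18 for code 92 and -1.66 for code 93.

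Other genes linked to interferon and outside the list were among the 20 symbols with the smallest p in the lower direction, and were named after their values were seen. ISG20, an exonuclease for single-stranded RNA, was at 0.722, 0.335 and 0.697 CPM against 10.9, 9.98 and 5.61 CPM and HSH2D, an adaptor protein of haematopoietic cells, at 1.59, 0.502 and 0.697 CPM against 9.01, 8.40 and 9.52 CPM. Both were at about 1 CPM or less in most high responders and near 10 CPM in most low responders, with log2 differences of -3.94 ± 0.48 (SE; adjusted p = 0.108) and -3.37 ± 0.47 (SE; adjusted p = 0.114). The membrane proteins IFITM2 and IFITM3, which block virus entry, came next. IFITM2 was at 52.1, 14.1 and 44.7 CPM against 274, 436 and 247 CPM. IFITM3 was at 55.9, 10.9 and 23.1 CPM against 214, 300.3 and 185 CPM. Both had fractional counts in 6 of 6 libraries, so reads were shared between near-identical genes and their split is uncertain. MOV10, an RNA helicase, was at 88.8, 51.5 and 64.4 CPM against 164, 198 and 161 CPM, WARS, the tryptophanyl-tRNA synthetase, at 309.8, 333 and 351 CPM against 735, 835 and 638 CPM, and the subunit IFNLR1 of the interferon lambda receptor at 0.866, 0.502 and 0.348 CPM against 5.34, 3.96 and 2.97 CPM. In none of these did the groups overlap, and the adjusted edgeR p was 0.108 to 0.149 for all 7. High responder levels of ISG20, HSH2D and IFNLR1 were mostly below 1 CPM, so the folds of these genes rest on few reads.

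In the list of interferon signalling and IRF factors, 9 of 20 members were tested, the median was -0.14, and 3 had an unadjusted p below 0.05, all lower in high responders. IRF1, a factor that turns on many interferon and NOS2-linked genes, was at 74.8, 71.4 and 88.4 CPM against 166, 172 and 171 CPM, and the low responders were nearly equal. Its log2 difference was -1.12 ± 0.18 (SE; adjusted p = 0.120), and DESeq2 gave 8.82e-06. STAT2 was at 84.9, 74.9 and 57.3 CPM against 129, 159 and 152 CPM (log2 difference -1.02 ± 0.21 SE, adjusted p = 0.198) and IRF9, its partner, at 54.1, 62.3 and 69.5 CPM against 77.4, 105 and 80.0 CPM. The groups did not overlap in any of these 3 genes. IRF8, a myeloid lineage factor, overlapped at 39.3, 48.9 and 55.0 CPM against 74.2, 63.7 and 44.0 CPM. The receptor subunits IFNAR2 and IFNGR2 had log2 differences of 0.33 and 0.41, and the kinase JAK2 of -0.03. Without low responder 93 the list median was 0.03.

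Of 14 tested members of the guanylate-binding protein and MHC class I list, 13 had negative values, with a median of -0.46, 5 had an unadjusted p below 0.05 and lower levels in high responders, and 1 the reverse. GBP5, a GTPase that coats intracellular bacteria, was at 4.91, 6.08 and 1.46 CPM against 10.8, 46.9 and 32.0 CPM, and every high responder lay below every low responder. TAP1, the peptide transporter of the class I pathway, was at 111, 81.5 and 122 CPM against 179, 226 and 189.9 CPM. The log2 differences of these 2 genes were -2.85 ± 0.66 (SE; adjusted p = 0.234) and -0.92 ± 0.22 (SE; adjusted p = 0.234), and DESeq2 called both. The reverse member was JSP.1, a class I heavy chain gene, at 186, 107 and 141 CPM against 98.6, 89.5 and 34.2 CPM. It belongs to a multigene family with fractional counts in 6 of 6 libraries, so its split of reads is uncertain. The count of 5 was 9 without high responder 94, 3 without high responder 93 and 2 without low responder 92. Of 4 tested MHC class II genes, 2 had groups that did not overlap. BOLA-DMB, a peptide-loading chaperone, was at 58.3, 57.5 and 50.4 CPM against 70.3, 106 and 88.2 CPM and BOLA-DRA at 277, 307 and 277 CPM against 406, 501 and 331 CPM, with log2 differences of -0.67 and -0.52 that did not pass the test.

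Bacterial sensing genes overlapped between the groups when all 6 libraries were used. In the list of LPS and Toll-like receptor sensing, 9 of 24 members were tested, none had groups that did not overlap, and the median was -0.12, which ranged from -0.37 without low responder 91 to 0.07 without low responder 93. Without low responder 91, groups lay apart in 4 members that were lower in high responders and 0 that were higher. Without high responder 92 these counts were 3 and 1. Groups with fewer libraries lie apart more readily, and the share over all genes was not counted in these fits. TLR4, the LPS receptor, was at 272, 245 and 168 CPM against 189, 296 and 288 CPM, which overlapped. CD180, a TLR4-like protein that dampens LPS signals in myeloid cells, was at 19.3, 6.75 and 12.5 CPM against 16.2, 42.0 and 64.8 CPM, and was the sole member with an unadjusted p below 0.05. IRAK2, a kinase downstream of these receptors, was at 41.3, 37.4 and 31.0 CPM against 65.9, 55.6 and 40.4 CPM. Of 8 tested NF-kB factors and feedback genes, none had an unadjusted p below 0.05. NFKBIZ, an inducible co-activator, was at 67.6, 58.4 and 26.4 CPM against 69.0, 102 and 82.3 CPM and NFKB2 at 74.8, 89.6 and 102 CPM against 143, 122 and 89.5 CPM. The median of that list was -0.17, and it was -0.41 without high responder 94 and -0.40 without low responder 93.

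NOS2, which makes the nitric oxide that defined the responder groups, was low in these wells, at 2.31, 5.58 and 5.02 CPM against 7.23, 10.3 and 8.24 CPM. Each high responder was lower than any low responder, and the log2 difference of -0.97 ± 0.39 (SE; adjusted p = 0.577) did not pass the test. After 18 h of E. coli the level of NOS2 was raised over all cows by 9.56 on the log2 scale. Of 9 tested genes of nitric oxide, arginine and oxidase, 5 had an unadjusted p below 0.05 and lower levels in high responders, and 1 had higher levels, with a median of -0.77. That count of 5 at the unadjusted threshold was 3 without low responder 92 or low responder 93. The groups did not overlap in 5 lower members and 1 higher member. ACOD1, which makes itaconate, was at 74.3, 42.4 and 41.9 CPM against 94.6, 117 and 153 CPM, with a log2 difference of -1.20 ± 0.30 (SE; adjusted p = 0.274). The oxidase subunits CYBB and NCF1 had log2 differences of -0.84 and -0.81. ASS1, which feeds arginine back to nitric oxide synthase from citrulline, went the other way at 37.8, 57.0 and 86.3 CPM against 22.03, 29.2 and 26.4 CPM. In ASS1 all high responders lay above all low responders (log2 difference 1.23 ± 0.32 SE, adjusted p = 0.289), as they did at 18 h (1.35) and 3 h after E. coli (1.06).

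Chemokine genes were lower in high responders in sign for 8 of 8 tested members, with a median of -1.21, with 3 whose groups did not overlap and with 5 at an unadjusted p below 0.05. CCL5, which attracts lymphocytes, was at 106, 35.4 and 143 CPM against 774, 617 and 322 CPM (log2 difference -2.59 ± 0.53 SE, adjusted p = 0.198) and CCL8, which attracts monocytes, at 138, 29.1 and 37.2 CPM against 320.3, 337 and 203 CPM (log2 difference -2.08 ± 0.58 SE, adjusted p = 0.326). Neither overlapped between the groups, and both were DESeq2 calls. CCL3 was at 1429, 925 and 1969 CPM against 5076, 2045 and 1862 CPM. CCL4 was at 349, 116 and 263 CPM against 872, 427 and 565 CPM. In both of these macrophage inflammatory proteins low responder 91 was the highest library. Summed over the 8 genes, low responder 91 held 8344 CPM against 4446 and 4506 CPM in the other low responders. The count of 5 became 3 without that library or without high responder 93. Of the cytokines, 5 of 20 were tested, with a median of -0.37 that was -0.98 without high responder 94 and 0.56 without low responder 93. CSF1, the macrophage growth factor, was at 568, 453 and 647 CPM against 1404, 1107 and 778 CPM (log2 difference -0.98 ± 0.26 SE, adjusted p = 0.301), and its groups did not overlap. CSF2, which encodes the factor added to the culture, was at 5.77, 4.07 and 8.64 CPM against 27.5, 15.7 and 7.99 CPM, and IL1B was at 61.8, 55.1 and 88.5 CPM against 40.6, 41.2 and 109 CPM with no separation.

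Stress genes were likewise lower in 8 of 10 members in sign, with a median of -0.57 and 5 members at an unadjusted p below 0.05. The groups did not overlap in 6 of the 10, each lower in high responders. SRXN1, which repairs oxidised peroxiredoxin, was at 64.1, 57.7 and 61.0 CPM against 124, 113 and 107 CPM, a narrow range in either group, with a log2 difference of -0.91 ± 0.17 (SE; adjusted p = 0.155). TRIB3, a pseudokinase of the integrated stress response, was at 15.7, 17.3 and 18.3 CPM against 56.0, 36.1 and 22.1 CPM, also without overlap. The count of 5 was 2 without high responder 93 and 3 without low responder 91 or 92. In the remaining lists most members overlapped. Of the complement genes, C1R was at 0.577, 1.28 and 3.34 CPM against 5.01, 8.40 and 9.43 CPM without overlap and C3 at 21.1, 28.9 and 36.6 CPM against 23.8, 46.0 and 62.2 CPM. Of the immediate early genes, ATF3 was at 372, 174 and 416 CPM against 748, 513 and 535 CPM and EGR1 at 31.6, 20.7 and 41.5 CPM against 47.4, 50.6 and 38.1 CPM. Of the inflammasome and cytosolic sensors, NAIP was at 53.3, 38.7 and 26.1 CPM against 51.3, 107 and 107 CPM, while TMEM173 (STING), the adaptor for cytosolic DNA, was higher in every high responder at 45.5, 61.6 and 48.1 CPM against 23.0, 33.8 and 35.1 CPM. Among the calgranulins, calcium-binding proteins of myeloid cells, S100A12 was at 64.7, 32.4 and 194 CPM against 117, 145 and 463 CPM and S100A9 at 2.45, 1.73 and 14.7 CPM against 8.90, 9.19 and 21.2 CPM. Within each group these differed several-fold between cows, none of the 3 members had an unadjusted p below 0.05, and the list median was -1.29. Without high responder 94 the median was -2.70 and all 3 passed the unadjusted threshold, while it was -0.43 without low responder 93 and -0.80 without high responder 93, with 0 of 3.

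**Figure D3:**
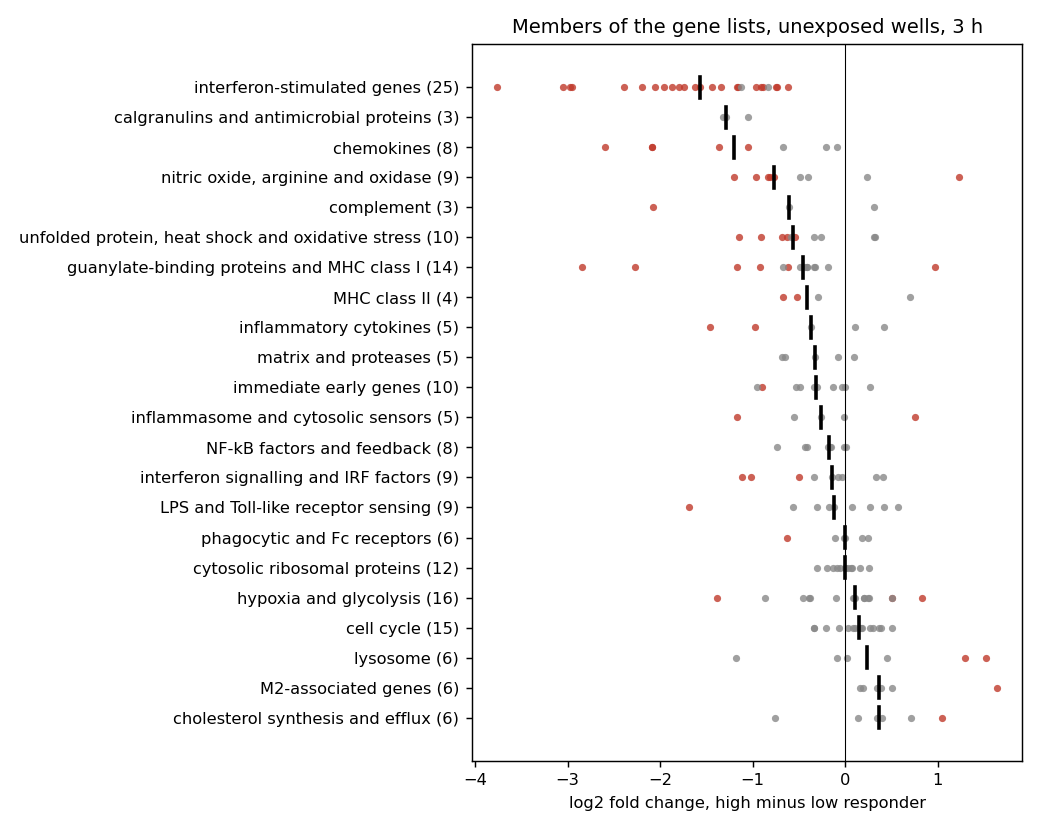
Log2 fold changes (log2 differences), high minus low responder, of the tested members of 22 gene lists, with the number tested in parentheses, 1 point per gene, red where the unadjusted p was below 0.05 and grey otherwise, and a black bar at the list median. The bar of the interferon-stimulated genes lies at -1.57 and that of the cytosolic ribosomal proteins at about 0.

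Genes higher in high responders were fewer among those with a symbol, and were named after their values were seen unless a list holds them. Of genes with no symbol, the groups did not overlap in 6.00% that were higher and 5.45% that were lower. ABCA10, a lipid transporter of the ABC family, was at 36.2, 63.2 and 28.4 CPM against 1.56, 4.12 and 1.10 CPM, so its lowest high responder stood above its highest low responder by over 6 times. Its log2 difference was 4.30 ± 0.56 (SE; adjusted p = 0.109) in edgeR, and DESeq2 gave 1.01e-12. LGMN (legumain), a lysosomal protease and the leading member of the M2-associated list, was at 3618, 5431 and 4350 CPM against 881, 1699 and 1707 CPM. That is among the abundant transcripts of these cells, and the log2 difference was 1.64 ± 0.30 (SE; adjusted p = 0.149). DAB2, an endocytic adaptor, was at 742, 1031 and 713 CPM against 126, 272 and 272 CPM (log2 difference 1.89 ± 0.33 SE, adjusted p = 0.137), and the sorting nexin SNX5 at 366, 431 and 321 CPM against 168, 204 and 186 CPM. IQGAP2, a scaffold of the cytoskeleton, was at 239, 330.4 and 123 CPM against 30.4, 80.7 and 85.1 CPM and GPR34, a lysophosphatidylserine receptor, at 72.6, 101 and 59.6 CPM against 15.5, 28.2 and 40.4 CPM. The groups did not overlap in DAB2, SNX5, IQGAP2 or GPR34. AKR1B1, an aldose reductase, was at 165, 206 and 144 CPM against 39.5, 87.5 and 71.1 CPM, SLC46A1, a folate transporter, at 30.2, 25.4 and 40.8 CPM against 11.2, 17.3 and 14.6 CPM, and the transcription factor MAF at 13.6, 63.3 and 31.5 CPM against 7.01, 11.4 and 9.52 CPM. In MAF high responder 92 was the lowest of its group.

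**Figure D4:**
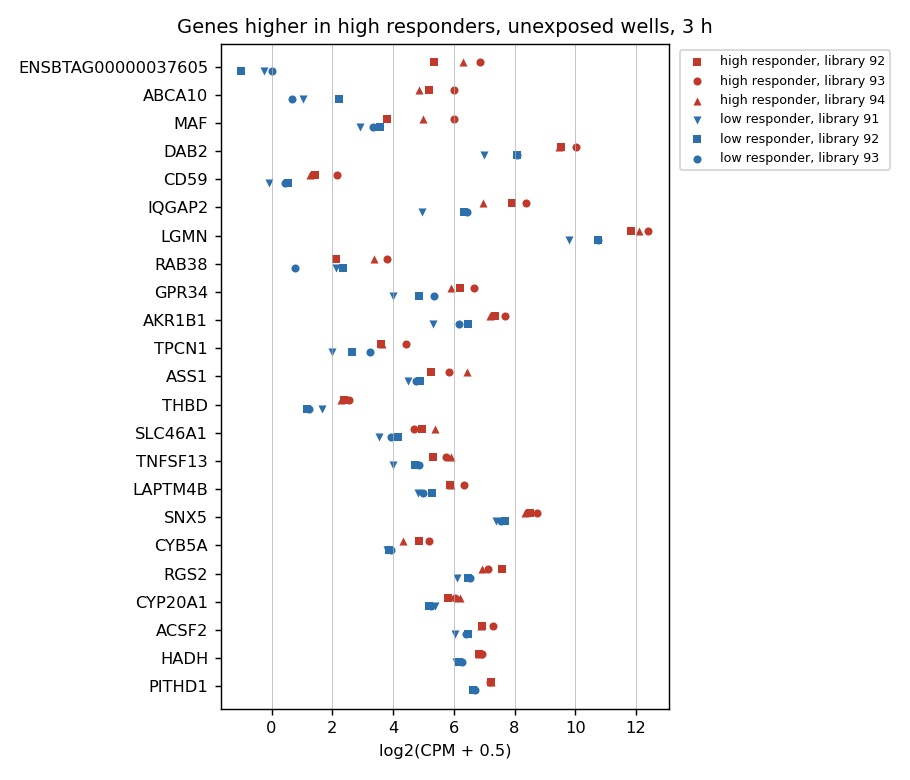
Levels, as log2(CPM + 0.5), of genes that were higher in high responders, being the called gene, the 20 symbols with the smallest p in that direction and the leading lysosomal genes, with high responders in red, low responders in blue and the marker shape for the library code. The called gene at the top is the only one whose low responder values lie near 0 CPM while its high responder values lie between 40.0 and 117 CPM.

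Among the gene lists, the medians in this direction were at most 0.37, beside 0.48 for the 4 tested macrophage markers, which include MSR1. All 6 tested M2-associated genes had positive values, with a median of 0.36, and 1, LGMN, had an unadjusted p below 0.05. Without high responder 94 this count was 3, and the groups did not overlap in 5 of 6. With fewer libraries groups lie apart more readily, and the share over all genes was not counted without this library. GPNMB was at 2974, 4130 and 558 CPM against 1129, 2232 and 2036 CPM and overlapped. Of 6 lysosomal genes, TPCN1, an endolysosomal channel, was at 11.7, 21.1 and 11.98 CPM against 3.45, 5.71 and 9.01 CPM and RAB38 at 3.90, 13.3 and 9.82 CPM against 3.89, 4.60 and 1.19 CPM, with a list median of 0.24. Of 6 cholesterol genes, CYP51A1, an enzyme of sterol synthesis, was at 57.9, 70.9 and 27.5 CPM against 24.4, 28.1 and 23.6 CPM and INSIG1, its feedback regulator, at 47.2, 81.9 and 35.6 CPM against 34.7, 36.3 and 30.0 CPM, with a median of 0.37. The groups overlapped in both, and high responder 94 was the lowest of its group. Among 16 hypoxia and glycolysis genes the median was 0.10, with ENO3 at 8.37, 3.46 and 11.1 CPM against 13.2, 17.1 and 29.4 CPM and the lactate exporter SLC16A3 at 50.1, 107 and 117 CPM against 46.2, 53.7 and 54.3 CPM. In the phagocytic and Fc receptor list, FGR, a Src-family kinase, was at 283, 267 and 406 CPM against 523, 484 and 474 CPM, and the median over 6 genes was -0.01. In the matrix and protease list, with a median of -0.32, PLAUR, the urokinase receptor, was at 359, 244 and 568 CPM against 834, 569.9 and 479.9 CPM and SERPINB2, an inhibitor of urokinase, at 256, 122 and 187 CPM against 233, 238 and 416 CPM. None of 15 cell cycle genes and none of 12 cytosolic ribosomal protein genes had an unadjusted p below 0.05. For these the medians were 0.15 and -0.0026, with STMN1 at 139, 80.2 and 160.3 CPM against 87.4, 55.5 and 125 CPM, MCM3 at 84.6, 70.8 and 132 CPM against 73.4, 52.5 and 97.1 CPM and RPL21 at 502, 374 and 661 CPM against 463, 411 and 416 CPM. With 1 library left out the medians ranged from -0.07 to 0.37 and from -0.31 to 0.21. From the ranked lists came 13 of the 15 cell cycle genes and 3 of the 12 ribosomal protein genes.

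The same genes were read again in the control wells of 18 h, which are other libraries of the same cows and so repeat the cells, not the animals. Of the 518 genes lower at 3 h at an unadjusted p below 0.05, 512 were tested at 18 h, 500 (97.7%) had the same sign, where 48.7% of all genes had it, and 357 (69.7%) had the same sign and an unadjusted p below 0.05. Over all 11000 genes tested at both times, 10.6% were lower at that threshold. Of the 348 genes that were higher at 3 h, 346 were tested at 18 h, all 346 had the same sign, where 51.3% of all genes had it, and 282 (81.5%) passed the unadjusted threshold, against 11.3% of all. A test of the change of the difference between 3 h and 18 h called 0 genes in edgeR and 0 in DESeq2, where 78 and 121 reached the unadjusted threshold. This test did not match wells of the same cow across times, so the change was set against the spread between cows. The 0 calls thus do not show that the difference stayed the same. For the interferon-stimulated genes the median at 18 h was -1.41, and 24 of 25 were lower at an unadjusted p below 0.05. For the chemokines the median at 18 h was -0.18, with 2 of 8 lower at that threshold, beside -1.21 and 5 of 8 at 3 h. In the test of the change between times 0 of the 8 reached the unadjusted threshold. The stress genes had a median of -0.50, with 8 of 10 lower, and the genes of nitric oxide, arginine and oxidase -0.24, with 3 of 9. All 25 interferon-stimulated and all 10 stress genes had symbols from the lists that the study ranked at 18 h. The control wells of 18 h entered that ranking, so these counts are no independent repeat of the 3 h result. The share of all ranked genes that were lower at 18 h was not counted. At 18 h 17 genes passed the adjusted threshold between the groups, 4 higher and 13 lower (0.155% of the genes tested at both times).

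**Figure D5:**
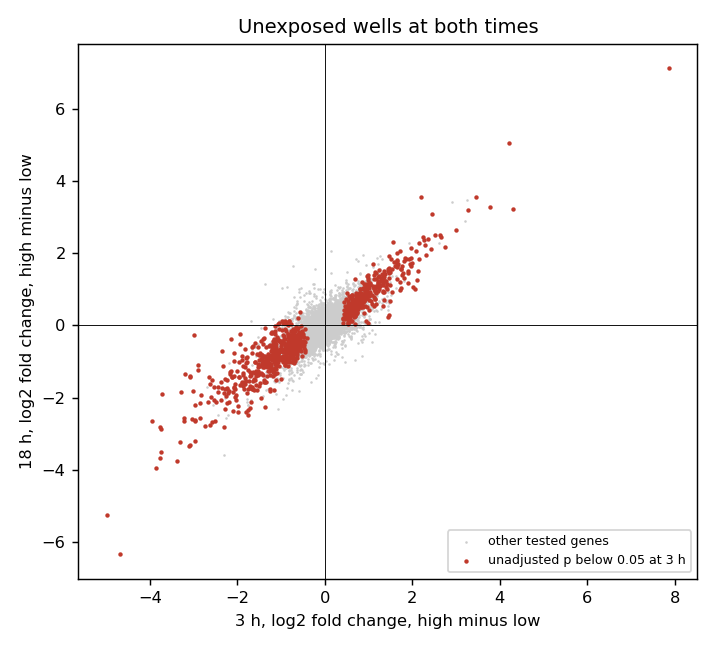
Log2 fold changes (log2 differences), high minus low responder, in unexposed wells at 3 h (x axis) and 18 h (y axis), 1 point per gene tested at both times, with the genes at an unadjusted p below 0.05 at 3 h in red and the others in grey. Of the red points, 500 of 512 on the left lie below 0 at 18 h and 346 of 346 on the right lie above 0.

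In the wells given E. coli for 3 h, which share cows but no libraries with the control wells, the same genes were set side by side. Of 501 tested genes that were lower at 3 h without bacteria, 168 (33.5%) were also lower with E. coli at an unadjusted p below 0.05, against 4.73% of all. For the genes that were higher, the count was 188 of 324 (58.0%), against 7.93% of all. The median of the interferon-stimulated genes was -0.67, and 3 of 25 were lower at that threshold, while that of the chemokines was -0.13, with 0 of 8. IRF1 had a log2 difference of 0.12 and CCL5 of -0.31 in these wells, beside -1.12 and -2.59 without bacteria. For HSH2D, ABCA10 and DAB2 the values with E. coli were -2.70, 4.21 and 1.56, beside -3.37, 4.30 and 1.89 without bacteria. In these wells 9 genes (0.085% of those tested in both) passed the adjusted threshold. The difference between exposed and unexposed wells was not tested for these genes.

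The genes of either direction were also set beside the response to E. coli at 18 h, in wells of the same cows and other libraries. Of 516 tested genes that were lower in high responders without bacteria, 228 (44.2%) were raised by E. coli with an adjusted p below 0.05 and a fold above 1.5, and 101 (19.6%) were lowered. Over all 11022 genes tested in both, 13.6% were raised and 21.6% lowered. Of 347 genes that were higher in high responders, 22 (6.34%) were raised and 214 (61.7%) lowered. Among the named genes, CCL5 and IRF1 were raised by 5.20 and 3.95 on the log2 scale, while GPR34, DAB2 and ABCA10 had changes of -7.41, -4.38 and -3.23. Of the 25 interferon-stimulated genes, 7 were raised and 2 were lowered.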

How the data were processed

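RNA-seq was done by the study on libraries made with a stranded mRNA kit. The authors trimmed reads with Trimmomatic, aligned them to UMD 3.1 with STAR and estimated expected counts per Ensembl gene with RSEM, and these expected counts are the deposited unit used here. They carry no normalization. They were rounded, filtered with filterByExpr, scaled by TMM and tested with edgeR 4.0.16 (quasi-likelihood, high against low, unpaired, two-sided, Benjamini-Hochberg) in R 4.3.3. The TPM deposited by the authors and effective lengths served as descriptions or in an alternative. DESeq2 1.42.0, limma 3.58.1 voom and other settings were alternatives. The code was tested on simulated data. An exact permutation test of 3 against 3 cannot go below p = 0.1.

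Symbols came from the identifier and symbol columns of the study's supplementary sheets (2803 identifiers), whose other columns hold the authors' own contrasts and were not used. Genes were named by 3 routes: called genes with a symbol whose groups did not overlap (0), the called or else the 2 smallest-p members of each list, and 12 fixed genes, of which CSF1R, ARG1, TNF and IL10 had no identifier. Others were named after their values were seen. Some list members that this rule would name are not reported here. Of the 23 gene lists, the mitochondrially encoded genes had no identifier. The comparison, members and lists were chosen with earlier results of these data known. Counting without molecular identifiers means that read counts are not independent molecules.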

Additional observations from a re-analysis of the deposited data

How the results depend on the processing

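The count of called genes at 3 h without bacteria was 1. It stayed 1 under RLE and upper-quartile factors, effective length offsets, no minimum fold and a term for library codes 91 and 92 against 93 and 94. It was 8 with no filter, 2 at a mean of at least 50 counts, 2 at adjusted p below 0.1, 2 after thinning to the smallest total, 41 in the fit of all 12 libraries of 3 h, 199 in that of all 24, 241 with DESeq2 and 154 with limma voom. The fits of 12 and of 24 libraries had no term for cow. Wells of the same cow thus counted there as separate replicates, and the 41 and 199 calls are not from more animals. Leaving out 1 library gave 0 to 28, and the 28 came without high responder 92. With the replicate block by library code number 1 gene was called, in the lower direction, and the gene called without it had an adjusted p of 0.0627; the labels give no meaning to the numbers, and 2 of them were shared by the groups. Median list values under other scaling kept their sign in the interferon-stimulated genes. The log2 difference of IL1B, 0.11, turned sign in 5 settings, to -0.21 at the lowest. For unexposed wells at 18 h the 17 calls became 219 with no filter and 703 with DESeq2, and 0 to 129 without 1 library. The change between times, tested without matching wells of the same cow, had 0 calls in all settings run. For E. coli wells at 3 h the 9 calls became 51 with no filter and 283 with DESeq2, and 0 to 72 without 1 library. The E. coli effect at 18 h had 4289 calls, 4048 with no replicate block and 4143 to 4412 without 1 cow. The cause of these moves was not tested. With 3 cows in each group, differences that missed the threshold are not shown to be absent, and genes without a symbol were counted but not described.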

Other observations

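High responder library 94 and low responder library 91 shared some features that do not follow responder status. The 12 cytosolic ribosomal protein genes summed to 7293 CPM in high responder 94 and 6840 CPM in low responder 91, against 4217 to 4626 CPM in the other 4 libraries. JUNB, an immediate early factor, was at 17.5, 54.6 and 129.9 CPM against 135, 73.7 and 47.1 CPM, and was highest in the same 2 libraries. PSMB10, a subunit of the immunoproteasome, was at 18.2, 31.1 and 66.3 CPM against 75.1, 66.9 and 43.2 CPM and NFKBIE, an NF-kB inhibitor, at 20.1, 32.4 and 42.4 CPM against 45.9, 37.9 and 22.4 CPM, each with the highest value of its group in these libraries. The proliferation gene MKI67 was at 374, 162 and 174 CPM against 189, 179 and 525 CPM, and its highest levels were in high responder 92 and low responder 93, the pair of libraries from opposite groups with an r of 0.968. These libraries and genes were chosen after their values were seen.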
